A study of Mus musculus with 15 samples.

Results

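Genes that encode 10 neuropeptides of the cerebral cortex (Sst, Vip, Npy, Tac1, Tac2, Crh, Cort, Cartpt, Grp and Adcyap1) were followed through single-cell RNA sequencing of the mouse prefrontal cortex (PFC). They were taken by symbol from the 26145 genes of the count tables, and all 10 were found. The 15 libraries were made from the PFC of male C57BL/6N mice, with the tissue of 2 mice pooled for each P60 library, so a library is the replicate and no value belongs to a single mouse. P60 is the name used here for all adult mice. The paper places catheter implantation at P60, before self-administration and withdrawal, so by its account they were older when taken. The labels give every adult library the same age range, which ends at 10 weeks. Catheters at P60, then self-administration and 15 days of withdrawal, put the latest mice past that age. Labels and paper therefore conflict for these mice, and the exact ages at each time are not known. Adult mice had learned to self-administer saline or cocaine through an intravenous line. They were taken at the end of the maintenance phase, after 48 h of withdrawal or after 15 days of withdrawal, with 2 libraries for each of the 6 combinations, and 3 further libraries came from mice at weaning (P21). The methods give 4 mice for P21, and how these were divided among the 3 libraries is not known, so P21 libraries may share mice. The study compared P21 with P60, which spans adolescence, and cocaine with saline at each time.

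Cells had been captured in droplets that tag every mRNA molecule with a cell barcode and a unique molecular identifier (UMI), so a UMI stands for 1 counted molecule. The 35360 cells in the authors' table of retained cells fall into 26 excitatory clusters, 12 inhibitory clusters and 6 non-neuronal classes. At P60 there were 14443 excitatory, 1191 inhibitory and 9188 non-neuronal cells, and at P21 there were 5934, 962 and 3642. Retained UMIs per library ranged from 8375172 to 42892922, and inhibitory neurons from 19 to 218 in a P60 library and from 290 to 371 in a P21 library. The smallest numbers, 19 and 28, belong to the saline maintenance libraries 2 and 3. The inhibitory label held against its markers, because Gad1, which makes GABA, was at 1553 CPM (counts per 1000000 UMIs) in the inhibitory and at 1.54 CPM in the excitatory neurons at P60. Slc17a7, the vesicular glutamate transporter of excitatory neurons, was at 414 CPM in the excitatory and at 45.1 CPM in the inhibitory neurons.

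Neuropeptides are made as longer precursors, cut and stored in dense-core vesicles, and released alongside GABA or glutamate to act on G protein-coupled receptors, usually more slowly and over a longer range than the fast transmitter. In the cortex most of them mark classes of inhibitory interneurons. Somatostatin and vasoactive intestinal peptide define different classes, with somatostatin cells acting on dendrites and many Vip cells acting on other interneurons, whereas gastrin-releasing peptide and PACAP, the product of Adcyap1, are also made by pyramidal cells. Several of these genes are textbook targets of the cAMP response element (CRE), a short site bound by CREB.

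The sequences before the start sites of 4 members share 7 letters of this element, and they are printed here to show them. The letters TGACGTC, the core of a CRE, and their reverse complement GACGTCA were searched on both strands of the 250 bases before each RefSeq start (GRCm38.p6). They were chosen with the sequences in view. Windows were given for 8 members, and 4 of them held the core, and 854 of 27025 genes with a window held it (3.16%). Because the letters were chosen to fit these sequences, nothing is read from the difference between these shares. Each line gives 87 bases read 5′ to 3′ along the gene, with the core in capitals.
Sst, chr16:23890846-23890932 (minus strand): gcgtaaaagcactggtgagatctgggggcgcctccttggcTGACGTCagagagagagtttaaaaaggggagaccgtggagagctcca
Vip, chr10:5639099-5639185 (plus strand): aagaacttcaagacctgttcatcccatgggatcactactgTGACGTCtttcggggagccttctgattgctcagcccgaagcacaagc
Cartpt, chr13:99900749-99900835 (minus strand): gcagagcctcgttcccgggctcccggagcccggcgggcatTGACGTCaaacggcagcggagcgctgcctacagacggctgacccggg
Adcyap1, chr17:93198886-93198972 (plus strand): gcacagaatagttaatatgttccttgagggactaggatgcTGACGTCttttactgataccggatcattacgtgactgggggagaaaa
The base after the core completes the full CRE palindrome in Sst and Cartpt and does not in Vip and Adcyap1. Between the end of the core and the start lie 41 bases in Sst, 72 in Vip, 84 in Adcyap1 and 105 in Cartpt. The windows of Npy, Tac1, Tac2 and Cort did not hold these letters. Whether CREB binds any of these sites in the PFC was not measured.

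Sst (ENSMUSG00000004366, mm9 chr16:23889667-23890930) was highest in Inhib_1 at P60, at 40338.5 CPM over 36 cells, where only 1 library had at least 10 cells, and at 22921 CPM in Inhib_2, where 6 libraries lay between 14629 and 29312 CPM. The next clusters, Inhib_3 at 571 CPM and Inhib_7 at 476 CPM, were far below. Cort (ENSMUSG00000028971, mm9 chr4:148499143-148500872) encodes cortistatin, a peptide that binds the somatostatin receptors. Its levels at P60 were 1111 CPM in Inhib_1, 394 CPM in Inhib_7, 235 CPM in Inhib_8 and 211 CPM in Inhib_2. The 1 library with at least 10 cells of Inhib_1 had 598 CPM, within the range of 259 to 738 CPM of the Inhib_7 libraries, so the order of these clusters does not hold beyond their spread. Because Inhib_7 is a large cluster it held 52.2% of the Cort UMIs of all P60 cells, non-neuronal cells included.

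Npy (ENSMUSG00000029819, mm9 chr6:49772709-49779506), the neuropeptide Y gene, was highest in Inhib_7. The 9 P60 libraries with at least 10 cells of Inhib_7 had 30778 ± 6940 CPM (SD) and lay between 20452 and 42148 CPM. Inhib_1 followed at 21260 CPM and Inhib_8 at 15968 CPM, and Inhib_7 held 75.3% of the Npy UMIs of all P60 cells. Among excitatory clusters Npy was highest in Exc_12, at 222.6 to 729.3 CPM per library, and Exc_13, at 209.6 to 909.0 CPM.

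Vip, Tac2 and Crh overlapped in another set of interneurons. Vip (ENSMUSG00000019772, mm9 chr10:4698927-4707323) was at 19297 CPM in Inhib_4, 17734 CPM in Inhib_9, 6094 CPM in Inhib_10 and 3707 CPM in Inhib_11 at P60, and libraries of Inhib_4 and Inhib_9 overlapped. Tac2 (ENSMUSG00000025400, mm9 chr10:127162448-127168823), which encodes neurokinin B, was at 4708 CPM in Inhib_11 and 4652 CPM in Inhib_9, again with overlapping libraries, and at 2395 CPM in Inhib_12. Crh (ENSMUSG00000049796, mm9 chr3:19593401-19595396), the corticotropin-releasing hormone that also starts the stress axis, was at 145 CPM in Inhib_9 and 104 CPM in Inhib_4, and at 35.5 CPM in Inhib_2. In Inhib_4 this level came mostly from the cocaine libraries of 15 days, with 10 and 20 of its 42 UMIs, and the 35 saline cells held 2 Crh UMIs (10.7 CPM), whereas the saline cells of Inhib_9 were at 108 CPM. Inhib_9 was thus among the 2 highest clusters for each of these 3 genes at P60.

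In their highest clusters Tac1 and Cartpt were at lower levels than Sst, Npy, Vip and Tac2. Tac1 (ENSMUSG00000061762, mm9 chr6:7505071-7512973), the precursor of substance P and neurokinin A, was at 325 CPM in Inhib_7 at P60, with libraries between 0 and 792 CPM, and at 81.3 CPM in Inhib_3. Cartpt (ENSMUSG00000021647, mm9 chr13:100668439-100670638) encodes the CART peptide, named for its regulation by cocaine and amphetamine. It was at 257 CPM in Inhib_2, where libraries lay between 132 and 436 CPM. It was at 96.9 CPM in the excitatory cluster Exc_10, with libraries between 4.84 and 175.7 CPM, and 57.7% of the Cartpt UMIs of all P60 cells lay in Exc_10.

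Grp and Adcyap1 were genes of excitatory neurons. Grp (ENSMUSG00000024517, on chromosome 18), the gastrin-releasing peptide gene, was at 455 ± 55.8 CPM over libraries of Exc_4, between 385 and 559 CPM. Exc_21 was at 406 CPM, Exc_5 at 365 CPM and Exc_3 at 359 CPM, so that Exc_4 held only 16.3% of the Grp UMIs of all P60 cells. Adcyap1 (ENSMUSG00000024256, mm9 chr17:93598762-93604825) was spread still more evenly, at 81.2 CPM in Exc_16, 73.0 in Exc_17, 70.0 in Exc_14 and 66.4 in Exc_26. Of the P60 excitatory neurons, 40.7% had a UMI of Grp and 26.0% a UMI of Adcyap1, against 1.35% and 0.617% of endothelial cells, and the median cell of these classes held 13620 and 4515.5 UMIs. After each cell was thinned to 2000 UMIs these shares were 18.0% and 5.28% in excitatory neurons, and 0.533% and 0.253% in endothelial cells.

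**Figure D1:**
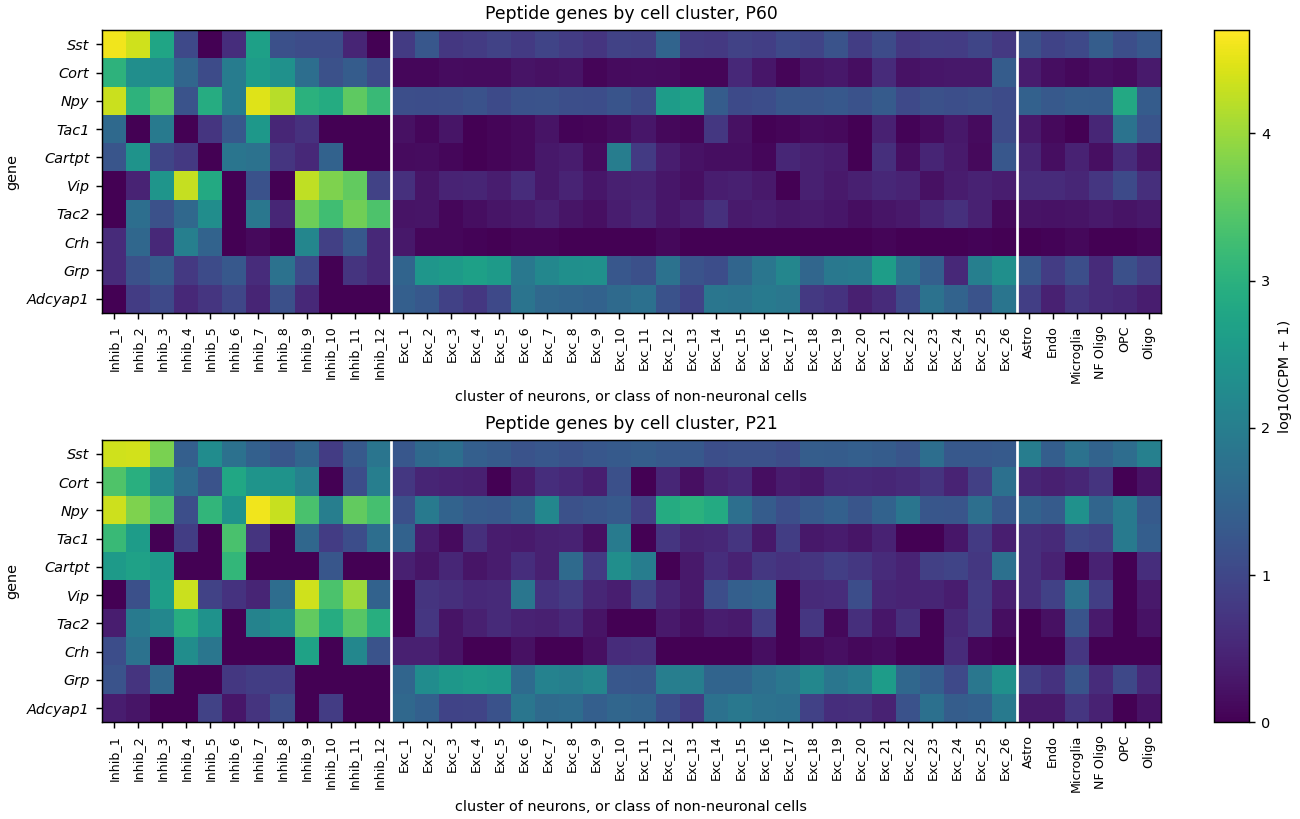
Heat map of the 10 peptide genes (rows) over the 12 inhibitory clusters, 26 excitatory clusters and 6 non-neuronal classes (columns) at P60 and P21, with brighter colour for a higher log10(CPM + 1) of UMIs pooled over libraries. Npy is brightest in Inhib_7 (29563 CPM at P60), Sst in Inhib_1 and Inhib_2, and Grp runs through many excitatory clusters with its P60 maximum of 461 CPM in Exc_4.

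Single cells carried these peptides in overlapping sets. A cell was counted for a gene where it held at least 3 of its UMIs. By that count 83.96% of P60 and 89.5% of P21 inhibitory neurons held at least 1 member, against 29.9% and 23.7% of excitatory neurons and 1.40% and 0.686% of non-neuronal cells. Cells that held 3 or more members made up 10.2% of inhibitory neurons at P60 and 31.2% at P21.

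At P60, 156 of the 258 Vip cells (60.5%) also held Tac2, which was 69.0% of the 226 Tac2 cells. Npy was found in 185 of the 214 Cort cells (86.4%). Of the 173 Sst cells, 85 (49.1%) held Npy and 1 held Vip. Among the rarer genes, Vip was held by 16 of the 23 Crh cells and Sst by 42 of the 69 Cartpt cells. At P21, 241 of 408 Sst cells (59.1%) held Npy and 89 of 141 Vip cells held Tac2. The 48 Crh cells of P21 were divided, with Sst in 21 and Vip in 25.

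The genes whose levels followed each member most closely over the 38 neuron clusters at P60 were sought among 5565 genes that reached 50 CPM in a cluster. The members themselves were passed over, and levels were taken as log2(CPM + 1). Pearson's r was 0.91 between Sst and Crhbp, the binding protein of CRH, and 0.80 between Sst and Sox6, a transcription factor of interneurons that arise in the medial ganglionic eminence. Vip was followed by Htr3a, a serotonin-gated channel, with r = 0.96, and Tac2 by the chemokine gene Cxcl14 with r = 0.93. Tac1 was closest to Th, the tyrosine hydroxylase gene, with r = 0.83. Cort was closest to A330050F15Rik with r = 0.92 and Npy to Fam46a with r = 0.88, and Cartpt to Ppargc1a with r = 0.75. Grp was closest to Sdcbp with r = 0.81, Adcyap1 to Krt12 with r = 0.88 and Crh to Zrsr2 with r = 0.837. The member Vip was slightly closer to Crh, with r = 0.842. The clusters come from the same libraries, so these values describe the pattern and carry no test.

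In summed inhibitory neurons Cartpt, Crh and Cort fell between P21 and P60. These 3 of 9 members tested were called lower at P60 by edgeR, and none was called higher, where 8.29% of 8898 genes were called lower, 5.73% higher and 14% in either direction. A call here is a change above 1.5-fold with an adjusted p below 0.05 in edgeR's quasi-likelihood test on summed UMIs, with 3 P21 and 6 saline P60 libraries. All P21 libraries belong to 1 group, so age and the preparation of these libraries cannot be told apart. The saline P60 mice had also gone through food restriction, food training, catheter surgery and self-administration, steps not described for P21 mice. Age cannot be told apart from these steps either. The p-values measure the spread between libraries, and if P21 libraries share mice there are fewer than 3 independent P21 samples. The summed level of 7 early-response genes, which also rise when tissue is dissociated, was 693 to 779 CPM in the inhibitory neurons of the P21 libraries and 126 to 749 CPM in those of P60, and its part in the results was not tested.

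Cartpt was at 274.7, 596.0 and 511.6 CPM in the inhibitory neurons of the 3 P21 libraries. In the saline P60 libraries it had a lowest value of 0, a median of 55.3 and a highest value of 93.0 CPM. Every P21 library lay above every saline library, and the change was -3.07 ± 0.44 on the log2 scale (SE, edgeR adjusted p = 0.00316). The levels in non-neuronal cells of the same libraries are given beside some results and as the grey band in the plot of levels by age. They can hold free RNA, and for Npy and Tac1 they also hold the UMIs of oligodendrocyte precursors described further on.

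Crh was at 84.5, 47.5 and 30.7 CPM at P21, against a lowest, median and highest value of 7.99, 15.96 and 29.7 CPM in the saline libraries. The groups did not overlap, though the third P21 library was only just above the highest saline library. The change was -1.99 ± 0.38 (edgeR adjusted p = 0.00467). With all 12 P60 libraries in place of the 6 saline libraries Crh was not called (-1.22, edgeR adjusted p = 0.0726).

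Cort was at 749, 674 and 970 CPM at P21 and between 113 and 406 CPM, with a median of 266, in the saline libraries. The groups did not overlap, and the change was -1.53 ± 0.39 (edgeR adjusted p = 0.0340). This call was lost in 7 of 18 other settings, 5 of them among the 9 that leave out a library: without any 1 of the P21 libraries, or without saline library 11 or 12, the edgeR adjusted p was 0.0512 to 0.126.

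Tac1 and Sst showed the same direction without being called, though edgeR called Tac1 with all 12 P60 libraries (-2.51, adjusted p = 0.0150). Tac1 was at 541, 1032 and 648 CPM at P21 and between 0 and 316 CPM, with a median of 204, in the saline libraries, and its groups did not overlap (-2.01 ± 0.66, edgeR adjusted p = 0.0774). Sst was at 12209, 10973 and 13196 CPM at P21, all above the saline libraries, which ranged from 0 in library 3 to 7995 CPM with a median of 2703 (-1.88 ± 1.08, edgeR adjusted p = 0.277). Library 3, with 28 inhibitory neurons, held no UMI of Sst in them, and library 2, with 19, held none of Tac1 or Cartpt.

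Npy, Vip and Tac2 had higher values at P60 and were not called by edgeR. DESeq2 called Npy (adjusted p = 0.0237) and Tac2 (adjusted p = 0.00723) higher, and edgeR called Tac2 with all 12 P60 libraries (adjusted p = 0.0223) and Npy without saline library 3 (adjusted p = 0.00249). Npy was at 10424, 8507 and 7823 CPM at P21 and at 7974 to 18880 CPM, median 13925, in the saline libraries (+0.64 ± 0.22, edgeR adjusted p = 0.0617). Tac2 was at 319, 641 and 364 CPM against 498 to 1556 CPM, median 863 (+1.04 ± 0.39, edgeR adjusted p = 0.107). Vip was at 1046, 3583 and 1524 CPM against 2661 to 6540 CPM, median 2844 (+0.84 ± 0.48, edgeR adjusted p = 0.276). In all 3 genes at least 1 P21 library lay within the saline range. Grp stayed at 3.02 to 6.78 CPM at P21 and 0 to 15.99 CPM in the saline libraries, close to its non-neuronal level, and Adcyap1, at no more than 5.00 CPM, did not pass the filter on low counts.

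**Figure D2:**
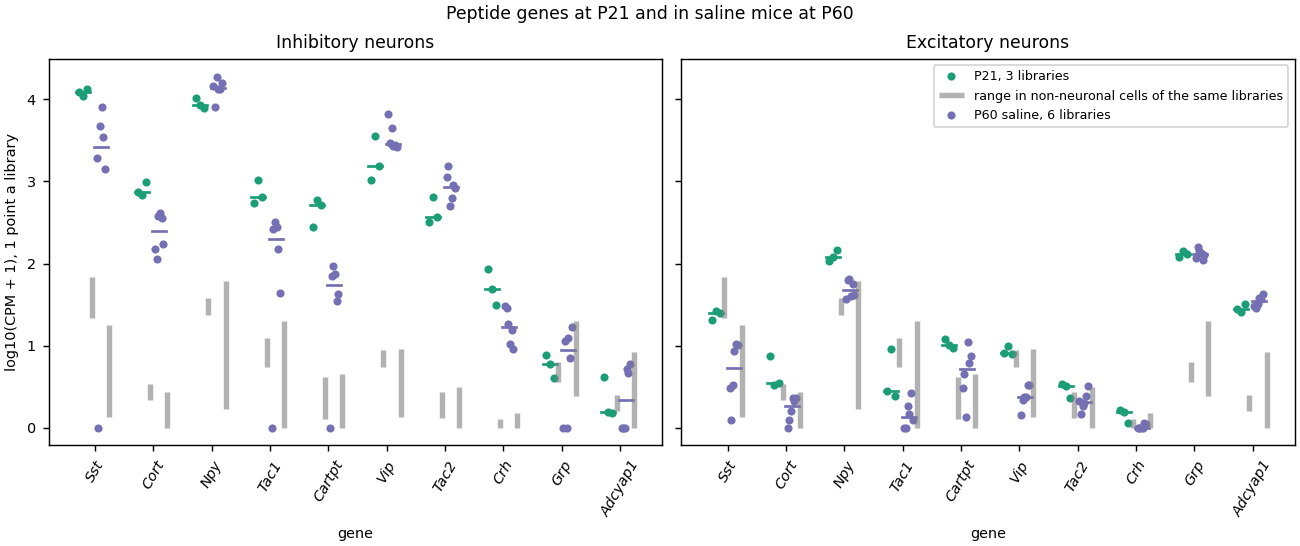
Level of each peptide gene in the summed inhibitory (left) and excitatory (right) neurons of every library, as log10(CPM + 1), for the 3 P21 and 6 saline P60 libraries, with short bars at the medians and the grey band giving the range in non-neuronal cells of the same libraries. In inhibitory neurons the P21 libraries of Cartpt, Crh and Cort lie above all saline libraries, and in excitatory neurons so do those of Npy, Vip and Sst.

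The make-up of the inhibitory neurons differed between the ages as well. The Sst clusters Inhib_1 and Inhib_2 held 44.5%, 44.9% and 47.2% of the inhibitory neurons of the P21 libraries, and between 0% and 19.3% in the saline libraries (10.1% ± 6.40, SD, n = 6). The difference was -35.5 percentage points (exact permutation test, two-sided, p = 0.0119, the smallest this design allows). The Vip clusters Inhib_4, Inhib_9 and Inhib_10 held 7.59%, 20.3% and 15.4% at P21 and 20.8% to 52.6% in the saline libraries, a difference of +16.2 points (exact permutation test, two-sided, p = 0.0714). This set leaves out Inhib_11, which had less Vip than these 3 clusters at P60 (3707 CPM) and more than Inhib_10 at P21 (10067 against 2369 CPM). Sst UMIs were found in 50.1% of P21 and 19.5% of P60 inhibitory neurons, and after thinning to 2000 UMIs in 43.5% and 15.95%. Endothelial cells of the same ages gave 9.30% and 3.34%, or 4.31% and 1.57% after thinning, with median depths of 3912.5 and 4515.5 UMIs. Inhib_6, where Cartpt was highest at P21 (1277 CPM), held 162 of 962 inhibitory neurons at P21 and 44 of 1191 at P60, cocaine libraries included. Inhib_7, the main Npy cluster, held 76 and 392. Summed levels of inhibitory neurons therefore mix changes within clusters with changes in the share of clusters, and how much each contributes was not tested.

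Of the Sst clusters Inhib_1 and Inhib_2, Sst could be tested by age only within Inhib_2. In Inhib_2 it was at 26390, 22364 and 23317 CPM at P21 and at 29312, 24220 and 14629 CPM in the 3 saline libraries with at least 10 cells, so the groups overlapped (-0.10, edgeR adjusted p = 0.907). By edgeR 2 members were called lower at P60 in Inhib_2, of 7 tested, where 0.747% of 5619 genes were called lower and 0.925% in either direction. These were Npy and Tac1.

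Npy in Inhib_2 was at 3802, 8447 and 7005 CPM at P21 and at 1278, 2150 and 938 CPM in the saline libraries. The groups did not overlap (-2.15 ± 0.34, edgeR adjusted p = 0.0207). The call was lost without saline library 7 (edgeR adjusted p = 0.246), without saline library 12 (edgeR adjusted p = 0.0774) and with all P60 libraries (edgeR adjusted p = 0.0616). Tac1 in Inhib_2 was at 525.8, 316 and 300.4 CPM at P21 and had no UMI in any saline library. Against a floor of 3 UMIs over the 37 saline cells, the pooled P21 level of 393 CPM was at least 43.6-fold higher (edgeR adjusted p = 0.00135). That level came from 38 of the 341 P21 cells, which had Sst at 4607 CPM and Pvalb at 415 CPM, against 26674 and 17.2 CPM in the other 303 cells.

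The other members tested in Inhib_2 were not called by edgeR, among them Cartpt (-1.03, edgeR adjusted p = 0.0505) and Cort (-1.24, edgeR adjusted p = 0.0989). Unadjusted p was below 0.05 for 6 of the 7 and for 759 of 5619 genes, and DESeq2 called 4 of the 7. The share of all genes called by DESeq2 is not given for any comparison. In Inhib_7, the main Npy cluster, none of 6 members was called by edgeR, where 2.59% of genes were. Unadjusted p was below 0.05 for 3 of the 6 and for 883 of 5127 genes, and DESeq2 called 2 of the 6. Npy there lay between 38315 and 42339 CPM in the P21 libraries and changed by -0.45 (edgeR adjusted p = 0.0797). In Inhib_9 none of 4 members was called by edgeR, where 1.13% of genes were. Unadjusted p was below 0.05 for 2 of the 4 and for 233 of 1505 genes, and DESeq2 called 1 of the 4. Crh was at 1183, 333 and 229 CPM there at P21 and at 76.9, 119.7 and 64.0 CPM in the saline libraries, which did not overlap (-2.60, edgeR adjusted p = 0.260). Vip (-0.37, edgeR adjusted p = 0.404) and Tac2 (+0.50, edgeR adjusted p = 0.274) of Inhib_9 had overlapping groups.

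Cells with Tac1 lay in different clusters at the 2 ages. At P60, 49 of 1191 inhibitory neurons (4.11%) held at least 3 Tac1 UMIs, and 43 of these lay in Inhib_7, 4 in Inhib_3 and 1 each in Inhib_1 and Inhib_6. At P21, 179 of 962 (18.6%) did, of which 99 lay in Inhib_6, 40 in Inhib_1, 38 in Inhib_2 and none of 76 cells in Inhib_7. Per library these cells made up 16.2%, 19.9% and 19.4% of inhibitory neurons at P21, 0% to 9.17% in the saline and 0% to 6.25% in the cocaine libraries. The median depth of inhibitory neurons with Tac1 was 9046 UMIs at P60 and 7524 at P21. The authors had assigned P21 cells to the P60 clusters by correlation, so a cluster name may hold different cells at the 2 ages.

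The 43 Tac1 cells of Inhib_7 at P60 differed from the other 349 cells of that cluster. Their pooled Npy was 1182 CPM against 32981 CPM in the others. Pvalb, the parvalbumin gene that marks fast-spiking basket cells, was at 1654 CPM against 87.2 CPM, Cort at 1567 against 253 CPM and Cartpt at 469 against 9.14 CPM. Their Sst was at 1356 CPM against 370 CPM. At P21 the 99 Tac1 cells of Inhib_6 had 330 CPM of Npy, 1321 of Pvalb, 815 of Cort, 1598 of Cartpt and 65.7 of Sst. The 38 Tac1 cells of Inhib_2 had 2454 CPM of Npy, 415 of Pvalb, 2123 of Cort, 1073 of Cartpt and 4607 of Sst. In the 40 of Inhib_1 these levels were 4967, 555, 2887, 875 and 4809 CPM. At both ages Tac1 cells often held other members. Of the 49 P60 cells 32 held Cort and 22 held Cartpt, and of the 179 P21 cells 116 held Cort and 116 held Cartpt. The cells were chosen by their Tac1 UMIs, so these levels are a description without a test.

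**Figure D3:**
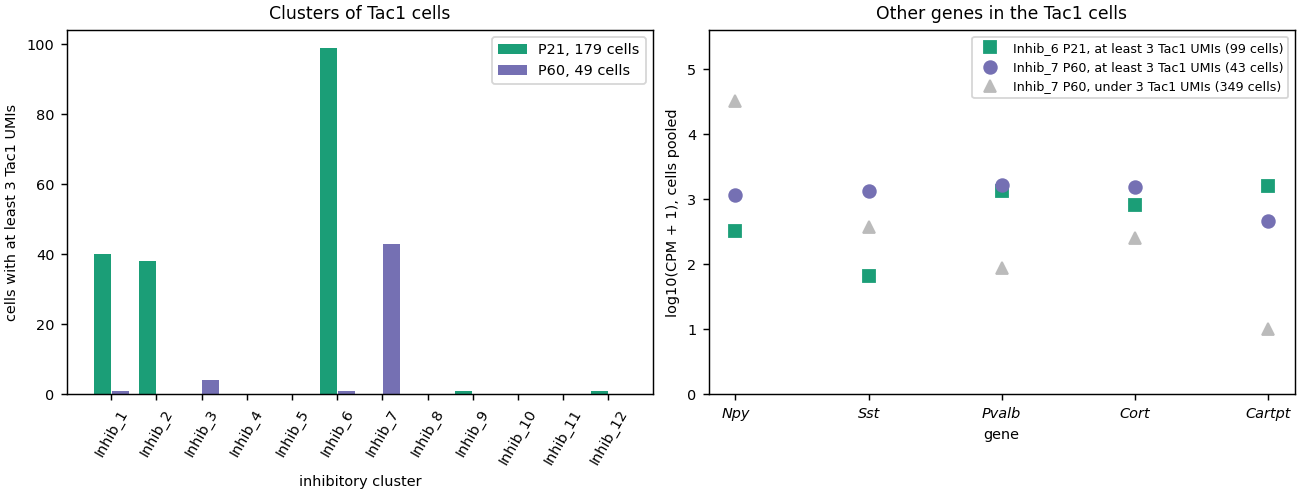
Left, number of inhibitory neurons with at least 3 Tac1 UMIs in each cluster at P60 and P21. Right, pooled CPM of Npy, Sst, Pvalb, Cort and Cartpt in the 99 Tac1 cells of Inhib_6 at P21, the 43 Tac1 cells of Inhib_7 at P60 and the 349 other cells of Inhib_7 at P60, on a log axis. The P60 Tac1 cells have 1182 CPM of Npy where the other Inhib_7 cells have 32981 CPM.

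In summed excitatory neurons 5 of 9 members tested were called lower at P60 (Npy, Vip, Sst, Cort and Tac1) and none higher, where 11.1% of 13245 genes were called lower, 8.18% higher and 19.3% in either direction. All 5 are at their highest in inhibitory clusters, and several were near the level of non-neuronal cells. The early-response genes were at 902 to 928 CPM in the excitatory neurons at P21 and 328 to 544 CPM at P60, and their part was not tested. Npy was at 107.9, 120.7 and 146.6 CPM at P21 and at 36.3 to 64.1 CPM, median 47.8, in the saline libraries. The groups did not overlap (-1.26 ± 0.20, edgeR adjusted p = 0.000783), and non-neuronal cells were at 22.5 to 37.1 CPM at P21 and 0.703 to 60.2 CPM in the saline libraries.

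Sst was at 19.8, 25.3 and 24.2 CPM at P21 and at 0.242 to 9.56 CPM, median 5.01, in the saline libraries (-1.89 ± 0.56, edgeR adjusted p = 0.0288). Non-neuronal cells moved with it, from 21.004 to 67.1 CPM at P21 to 0.351 to 17.1 CPM in the saline libraries. The 67.1 CPM are those of P21 library 1, where 1 oligodendrocyte held 252 of the 498 non-neuronal Sst UMIs and 1 astrocyte held 48. Without these cells the oligodendrocytes of that library had 21.1 CPM of Sst and the astrocytes 42.2 CPM. Vip was at 7.25, 8.88 and 6.82 CPM against 0.448 to 2.33 CPM, median 1.37 (-2.10 ± 0.25, edgeR adjusted p = 5.51e-05), with 4.50 to 7.95 and 0.351 to 8.20 CPM in non-neuronal cells. The groups of both genes did not overlap in excitatory neurons. Without P21 library 2 or 3 Sst was not called (edgeR adjusted p = 0.0814 and 0.0780). The part of free RNA in these calls was not tested.

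A few cells with conflicting labels carried much of the smaller signals. At P21, 17 of the 5934 cells in excitatory clusters were called inhibitory in the authors' class column, and they held 256 of the 403 Vip UMIs, 60 of 173 Tac1 UMIs, 49 of 113 Tac2 UMIs and 162 of 1192 Sst UMIs. For Npy they held 310 of 6474 UMIs and for Cort 13 of 239. In all, 276 cells of these clusters had another class in that column, with 259 Vip, 680 Npy, 213 Sst and 83 Tac1 UMIs. Without these 276 cells, and without those of P60 whose labels differ, Npy and Cort were still called, and Vip (-0.80, edgeR adjusted p = 0.0529), Sst (-1.66, edgeR adjusted p = 0.0524) and Tac1 (-1.38, edgeR adjusted p = 0.147) were not. Cort was at 6.51, 2.34 and 2.47 CPM at P21 and 0 to 1.31 CPM in the saline libraries (-1.999 ± 0.46, edgeR adjusted p = 0.00558), and non-neuronal cells were at 1.18 to 2.40 and 0 to 1.76 CPM. Tac1 was at 1.78, 8.18 and 1.45 CPM at P21 and 0 to 1.69 CPM in the saline libraries, which overlapped (-2.28 ± 0.80, edgeR adjusted p = 0.0485). Its call was lost in 10 of 17 other settings, DESeq2 included, and without P21 library 2 the change was -1.13 (edgeR adjusted p = 0.252). It was also lost without any 1 of the saline libraries 2, 3, 5, 7 and 12 (edgeR adjusted p from 0.0646 to 0.0907).

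The 2 peptides of excitatory neurons changed little in the class as a whole. Grp was at 118, 140 and 129 CPM at P21 and at 108 to 157 CPM, median 130, in the saline libraries, and these overlapped (+0.08, edgeR adjusted p = 0.623). Adcyap1 was at 27.1, 24.5 and 31.2 CPM at P21 and at 28.2 to 42.0 CPM, median 33.9, and passed the adjusted p but not the fold (+0.38 ± 0.12, edgeR adjusted p = 0.0243). Cartpt was at 8.41 to 11.2 CPM at P21 and 0.369 to 10.2 CPM in the saline libraries (-0.87, edgeR adjusted p = 0.233). Tac2 was not called (-0.60, edgeR adjusted p = 0.171). It was called in 1 of the 9 settings that leave out a library, and turned to +0.16 with agreeing labels. Crh, at no more than 0.669 CPM, did not pass the filter on low counts.

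Single excitatory clusters had calls of Grp, Cartpt and Adcyap1 that the class did not, and falls of Npy and Sst, which were called in the class as well. Over 26 excitatory clusters 13 of 61 tests of members were called, 11 lower and 2 higher at P60, where 11.3% of tests of all genes were called, 6.73% lower and 4.54% higher. Grp accounted for 4 of these, in opposite directions. In Exc_13 it was at 62.9, 123.1 and 131.9 CPM at P21 and at 0 to 32.7 CPM, median 14.4, in the saline libraries (-2.57 ± 0.35, edgeR adjusted p = 0.000207). In Exc_18 it was at 171.2, 105.0 and 134.6 CPM against 13.6, 32.7 and 42.7 CPM as lowest, median and highest value (-2.08 ± 0.28, edgeR adjusted p = 0.000207). In neither cluster did the ages overlap.

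Grp was higher at P60 in Exc_22, at 33.3, 37.3 and 40.0 CPM against 41.0 to 88.6 CPM, median 55.4 (+0.88 ± 0.27, edgeR adjusted p = 0.0164). The same held in Exc_6, at 31.9, 64.5 and 44.1 CPM against 73.5 to 112.4 CPM, median 75.0 (+0.85 ± 0.24, edgeR adjusted p = 0.0196). In both clusters every saline library was above every P21 library. DESeq2 called neither (adjusted p = 0.0654 and 0.0587). Leaving out P21 library 1 or saline library 11 ended the call in Exc_22 (edgeR adjusted p = 0.117 and 0.101), and leaving out P21 library 1 or 3 that in Exc_6 (edgeR adjusted p = 0.0836 and 0.0634). With at least 30 cells a library neither was called (edgeR adjusted p = 0.0634 in Exc_22 and 0.162 in Exc_6), and with all 12 P60 libraries Exc_6 was not (edgeR adjusted p = 0.160). The clusters in which Grp was highest (Exc_4, Exc_21, Exc_5 and Exc_3) were not among the calls.

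Cartpt fell in Exc_8, from 43.2, 32.5 and 45.1 CPM at P21 to 0 to 5.07 CPM, median 0.834, in the saline libraries (-4.64 ± 0.49, edgeR adjusted p = 3.14e-07). The ages were far apart, and no other setting ended the call. Of 150 P21 cells in Exc_8, 24 held a Cartpt UMI, and 8 of them held 48 of the 65 UMIs. In P21 library 1 a single cell held 14 of 29 UMIs, and in library 2 a single cell held 8 of 15. In Exc_10, where Cartpt was highest among excitatory clusters at P60, the P21 libraries were at 259, 213.8 and 88.6 CPM and there was no call.

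Npy in Exc_14 was at 1229, 503 and 503 CPM at P21 and at 0 to 71.2 CPM, median 33.1, in the saline libraries (-4.72 ± 0.61, edgeR adjusted p = 0.00193). Of 229 P21 cells in Exc_14, 66 held at least 3 Npy UMIs, and together they held 96.9% of them, with 26.0% in 1 cell. Of 335 saline cells, 9 did. Npy was also called in Exc_7 (-3.14 ± 0.75, edgeR adjusted p = 0.0440), where 1 cell held 96 of the 192 P21 UMIs. That call was lost in 8 of 18 other settings, among them those without P21 library 3 or without saline library 3, 5, 11 or 12 (edgeR adjusted p from 0.0719 to 0.132).

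Adcyap1 fell in Exc_25, from 23.9, 23.8 and 34.7 CPM at P21 to 6.79 to 22.1 CPM, median 13.6, in the saline libraries, without overlap (-0.79 ± 0.25, edgeR adjusted p = 0.0185). Without P21 library 3 or saline library 11 it was not called (edgeR adjusted p = 0.115 and 0.0706). The remaining 5 calls were falls of Sst in Exc_3, Exc_19, Exc_20, Exc_21 and Exc_25, between -3.05 and -1.31 on the log2 scale, beside the lower Sst of non-neuronal cells given above. In Exc_3, Exc_20 and Exc_25 these calls were lost when 1 of 4 or 5 different libraries was left out. With all 12 P60 libraries Sst was not called in Exc_19 (-0.71, edgeR adjusted p = 0.469), Exc_21 (-1.08, edgeR adjusted p = 0.0704) or Exc_25 (-1.14, edgeR adjusted p = 0.105).

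Outside neurons, Npy and Tac1 stood out in oligodendrocyte precursors (OPC), the dividing cells that give rise to oligodendrocytes. Pdgfra, the receptor that defines them, was at 753 CPM there and at 4.56 CPM in endothelial cells. In the 11 P60 libraries with at least 10 of these cells Npy lay between 152 and 1981 CPM, with a median of 228, and in every one above the endothelial cells of its own library, which lay between 0 and 40.1 CPM over 12 libraries. Tac1 lay between 32.3 and 99.3 CPM, with a median of 59.9, and again in all 11 above endothelial cells, which reached 1.33 CPM.

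The cells showed the same. An Npy UMI was found in 343 of 764 precursors (44.9%) and in 272 of 3564 endothelial cells (7.63%), at median depths of 3405 and 4515.5 UMIs. A Tac1 UMI was found in 131 of 764 precursors (17.1%), 4 endothelial cells (0.112%) and none of 1448 microglia. The 2 highest Npy values were those of library 8 (cocaine, 48 h) at 1981 CPM and library 10 (cocaine, 15 days) at 1404 CPM. In library 10, 58 of 123 Npy UMIs came from 1 cell and 768 CPM remained without it. At P21 only library 1 had enough precursors, and its 28 cells had 99.0 CPM of Npy and 61.9 CPM of Tac1. Gad1 was at 34.9 CPM and Gad2 at 3.53 CPM in the P60 precursors.

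**Figure D4:**
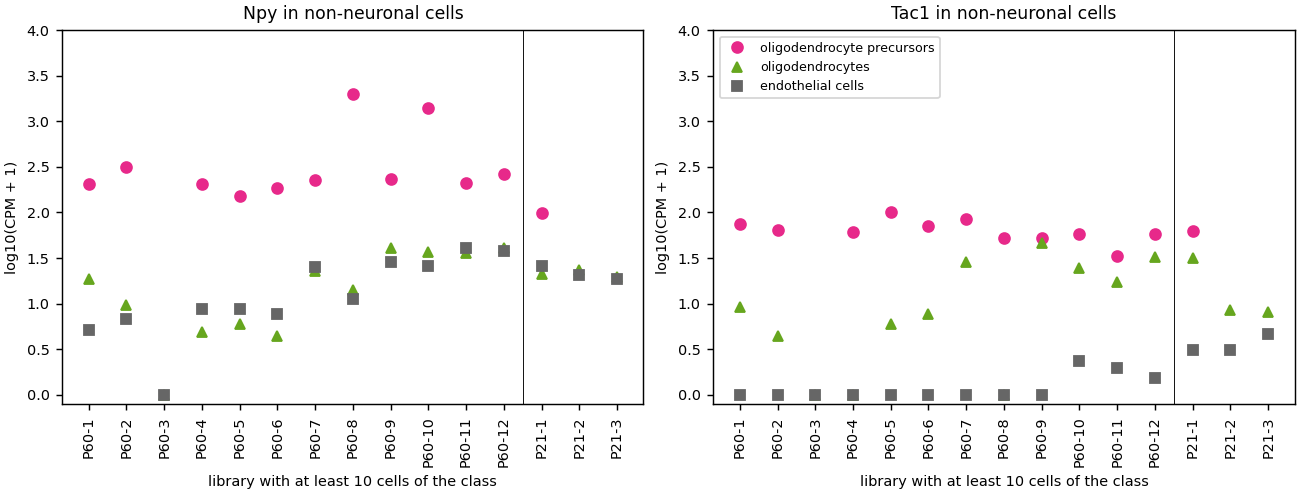
Level of Npy (left) and Tac1 (right) as log10(CPM + 1) in OPC, oligodendrocytes and endothelial cells, 1 point per library with at least 10 cells of the class. All 11 P60 points of OPC lie above those of endothelial cells of the same library, with Npy between 152 and 1981 CPM and Tac1 between 32.3 and 99.3 CPM.

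Cocaine and saline were compared within each time, with 2 libraries a group, in a fit of all 12 P60 libraries. In summed inhibitory neurons 1 of 36 tests of members was called, where 0.213% of tests of all genes were. It was Crh after 15 days of withdrawal, where 0.84% of 8687 genes were called in either direction and 0.622% higher. Crh was at 42.5 and 35.9 CPM in the cocaine libraries and 14.6 and 7.99 CPM in the saline libraries. The cocaine libraries were both above the saline libraries (+1.71 ± 0.34, edgeR adjusted p = 0.00775).

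These levels rest on 78 and 43 UMIs in the cocaine libraries and 24 and 8 in the saline libraries. A Crh UMI was found in 26 of 218 and 21 of 145 cells with cocaine and in 14 of 204 and 5 of 144 cells with saline, and the highest single cell held 11.54% and 23.3% of the UMIs of the cocaine libraries. Over all P60 inhibitory neurons 9.57% held a Crh UMI, against 0.0561% of endothelial cells, at median depths of 8038 and 4515.5 UMIs. DESeq2 gave +1.77 with an adjusted p of 0.305, and leaving out any 1 of the 15-day libraries 9, 10, 11 and 12 ended the call (edgeR adjusted p from 0.0667 to 0.500). In Inhib_9, the cluster with the most Crh, the cocaine libraries were at 244.7 and 111.8 CPM and the saline libraries at 119.7 and 64.0 CPM, which overlapped (+0.97 ± 0.44, edgeR adjusted p = 0.560). In Inhib_4 the cocaine libraries held 10 and 20 Crh UMIs, with 6 and 10 of them in a single cell. The 35 saline cells of Inhib_4, from all times together, held 2, and no saline library had enough of these cells for a test.

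At maintenance Crh was at 53.7 and 50.004 CPM with cocaine and 29.7 and 27.5 CPM with saline (+0.90 ± 0.55, edgeR unadjusted p = 0.113 and adjusted p = 1). After 48 h it was at 0 and 14.4 CPM with cocaine and 17.3 and 9.45 CPM with saline (-0.13, edgeR adjusted p = 1.00). The groups did not overlap at maintenance and overlapped after 48 h. The mean over the 3 times was +0.83 ± 0.29 (edgeR adjusted p = 0.905). Whether the effect differs between times was tested as an interaction, which called none of the 9 members, Crh included (edgeR unadjusted p = 0.0358, adjusted p = 0.999), where 0.0691% of genes were called. Unadjusted p was below 0.05 for 408 of 8687 genes and for 2 members, Crh and Tac2 (edgeR unadjusted p = 0.00912 for Tac2), and DESeq2 called no member. Without the cells of Inhib_3 the interaction called Tac2 (edgeR adjusted p = 0.0457). In excitatory neurons the interaction called none of 9 members in edgeR or DESeq2, none with an unadjusted p below 0.05, and 0% of 13171 genes, of which 692 had one in edgeR.

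Tac2 was the next member by p. After 48 h it was at 1182 and 848 CPM in the cocaine libraries and 498 and 633 CPM in the saline libraries, without overlap, and it was not called (+0.83 ± 0.21, edgeR unadjusted p = 0.000823, adjusted p = 0.510). Without the cells of Inhib_3 it was called (+0.97, edgeR adjusted p = 0.0104). Cartpt, named for its response to cocaine, was not called at any time, with +0.85 ± 1.07 at maintenance, -0.75 ± 0.74 after 48 h and +0.63 ± 0.64 after 15 days. Changes lay between -0.23 and +0.44 for Npy, between -0.83 and +0.06 for Vip and between -0.89 and +1.11 for Cort, none of them called. Sst and Tac1 had wide errors, with +0.77 ± 1.79 and -0.55 ± 1.14 after 15 days. Grp had no UMI in the maintenance cocaine libraries and was not called, and Adcyap1 did not pass the filter on low counts. Shares of the Sst clusters (+2.14 points, exact permutation test within times, two-sided, p = 0.583) and of the Vip clusters (-4.85 points, exact permutation p = 0.380) did not pass the test over the 3 times. For the Sst clusters the difference was +7.05 points at maintenance, -8.58 after 48 h and +7.94 after 15 days. After 15 days, the time of the Crh call, the Sst clusters held 17.0% and 15.9% of the inhibitory neurons in the cocaine libraries. In the saline libraries they held 9.31% and 7.64%, without overlap. The Vip clusters, which include Inhib_9, held 24.8% and 22.1% with cocaine and 23.5% and 20.8% with saline, which overlapped. The part of these shares in the Crh call was not tested.

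**Figure D5:**
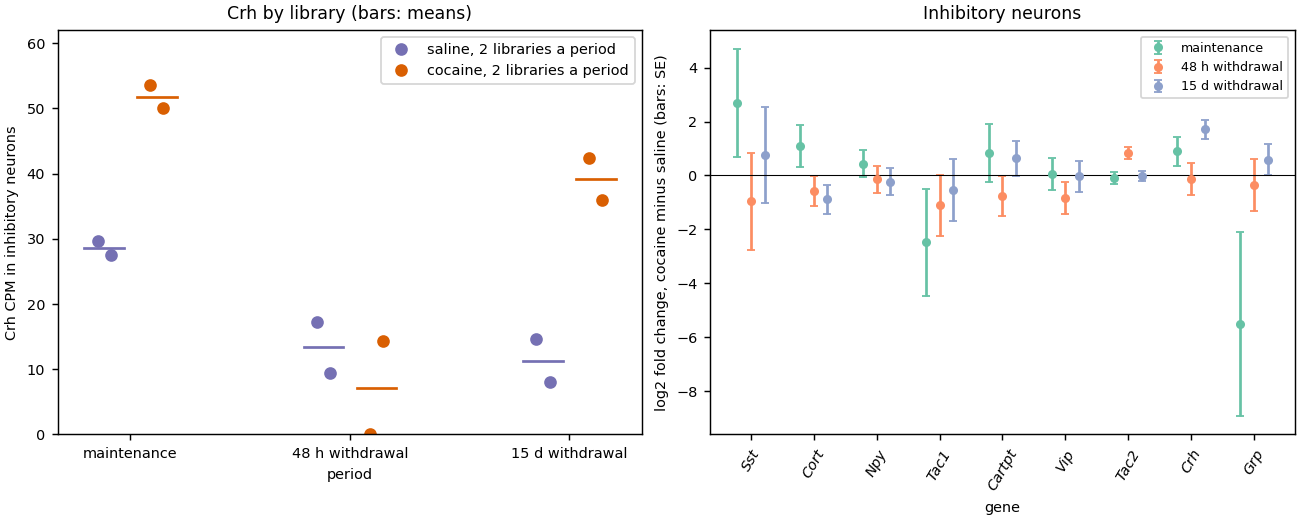
Left, Crh in the summed inhibitory neurons of each of the 12 P60 libraries in CPM, by time and treatment. Right, log2 fold change of cocaine against saline with its SE for 9 members at each time (2 libraries a group). The 15-day cocaine libraries lie at 42.5 and 35.9 CPM above the saline libraries at 14.6 and 7.99 CPM, and the Grp value at maintenance has no UMI in the cocaine arm.

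Within clusters 2 of 228 tests of members were called for cocaine, where 0.479% of tests of all genes were. Both were in Inhib_2 after 15 days, where 1.01% of 3974 genes were called. Cort was at 60.6 and 78.2 CPM in the cocaine libraries and 632.3 and 258.3 CPM in the saline libraries, without overlap (-2.75 ± 0.32, edgeR adjusted p = 7.60e-14). The fit holds 6 libraries, 7 to 12, those with at least 10 of these cells. No other setting ended the call, DESeq2 with an adjusted p of 0.0180, though 6 of them leave out a library that is not in the fit and could change nothing. Without saline library 11 the change was -1.85 (edgeR adjusted p = 0.0481). That leaves 1 saline library, assumed to vary like the 2 cocaine libraries of 15 days, the only group with more than 1 library. Few cells stand behind it. The 27 and 18 cocaine cells held 15 and 12 Cort UMIs, and the 12 and 10 saline cells held 75 and 19, the 19 of library 12 all in 1 cell. The SE of the Cort change is about the counting error of so few UMIs. Its p therefore holds little of the spread between libraries or cells.

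Tac2 in Inhib_2 was at 161.5 and 6.51 CPM in the cocaine libraries and 0 and 13.6 CPM in the saline libraries. The groups overlapped, and 39 of the 40 UMIs of library 9 lay in 1 cell (+3.97 ± 1.08, edgeR adjusted p = 0.0347). DESeq2 did not call it (adjusted p = 1.00), and leaving out library 7, 8 or 11 ended the call (edgeR adjusted p = 0.0539 without library 7 and 0.0511 without library 8). Library 9 held 40 of the 50 Tac2 UMIs of the P60 cells of Inhib_2, and without it Tac2 was too low to be tested. In excitatory neurons none of 36 tests of members was called by edgeR, where 0.177% of tests of all genes were called. An unadjusted p below 0.05 was found for 1 of the 36, Npy after 48 h (-0.75 ± 0.32, edgeR adjusted p = 0.980), and DESeq2 called none of the 36. Of 52684 tests of all genes 3547 had such a p. Over the 3 times Grp lay between -0.07 and +0.27, Adcyap1 between -0.25 and -0.04, Tac2 between -0.24 and +0.87 and Vip between -1.29 and -0.36. Sst lay between +0.05 and +1.70, Cartpt between -1.09 and +0.65 and Cort between -0.42 and +2.43. Tac1 had no UMI in the maintenance saline libraries and Crh did not pass the filter.

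The receptors of these peptides and the binding protein of CRH make up 19 genes, and many were highest in other clusters than the peptide itself. Sstr2 was highest in Exc_22 (102 CPM, libraries from 69.2 to 119.5). Sstr1 was at 36.9 CPM in OPC, with libraries from 9.30 to 48.1 CPM, and at 32.6 CPM in Inhib_2, with libraries from 0 to 85.7 CPM. Npy1r was nearly level in Inhib_11 (93.6 CPM over 46 UMIs), Inhib_10 (90.1 CPM), Inhib_9 (86.5 CPM) and Inhib_12 (83.98 CPM), and Npy2r was highest in Inhib_10 at 218 CPM. Grpr, the receptor of the peptide of excitatory neurons, was highest in the Vip cluster Inhib_9 (95.2 CPM, libraries from 61.01 to 137.2). Adcyap1r1, the PACAP receptor, was highest in OPC (125 CPM, libraries from 103 to 167). Crhr1 was highest in Exc_23 (41.9 CPM, libraries from 32.1 to 59.9), Tacr1 in Inhib_1 (58.3 CPM) and Crhbp in Inhib_1 (2872 CPM), the last 2 with 1 library of at least 10 cells. For Sstr2, Sstr1, Grpr, Adcyap1r1 and Crhr1 the libraries of the highest cluster overlapped those of other clusters, so these orders do not hold beyond the spread.

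With age, 1 of 12 receptors tested in excitatory neurons rose, Npy5r (+1.29 ± 0.13), and 1 fell, Sstr1 (-1.07 ± 0.13), where 19.3% of all genes were called. None of 8 was called in inhibitory neurons by edgeR or DESeq2, where edgeR called 14% of all genes. An unadjusted p below 0.05 was found there for 1 of the 8 and for 2936 of 8898 genes. Within excitatory clusters 4 of 75 receptor tests were called higher and 8 lower, where 4.54% and 6.73% of tests of all genes were and 11.3% were called in either direction. Npy1r, the Y1 receptor, was called higher in Exc_1 (+1.60 ± 0.37), Exc_2 (+0.80 ± 0.25) and Exc_3 (+1.09 ± 0.25), and Sstr1 lower in Exc_12, Exc_18 and Exc_19, between -2.28 and -0.92. The other calls were Npy5r higher in Exc_9 (+1.61), and lower values of Npy2r in Exc_14 (-1.89), Sstr2 in Exc_18 (-1.25), Crhr1 in Exc_17 (-0.96), and Sstr3 (-0.84) and Vipr1 (-0.74) in Exc_25. DESeq2 called no receptor in Exc_2, Exc_12, Exc_17, Exc_18 or Exc_19 and 1 in Exc_25. Among 12 other peptide genes, 9 were tested in excitatory neurons, and 5 fell (Adm, Cck, Igf1, Nts and Pdyn, between -2.91 and -1.66) while Nppc, the C-type natriuretic peptide, rose (+1.20 ± 0.15). Within excitatory clusters 28 of 67 tests of these other peptides were called by age, 13 higher and 15 lower. The list was chosen with earlier results of these data known, so nothing is read from this share beside that of all genes. Nppc was higher in 12 clusters, between +0.70 and +1.82, and Trh in Exc_21 (+0.97). The falls were those of Pdyn in 5 clusters (-3.45 to -1.35), Penk in 5 (-4.37 to -0.80), Cck in 4 (-2.25 to -1.72) and Igf1 in Exc_19 (-1.46). In inhibitory neurons 1 of 7 was called, Pnoc, the nociceptin precursor, which rose (+1.25 ± 0.17). After 15 days of withdrawal Cck, the cholecystokinin gene, was called higher with cocaine in Exc_18, Exc_20, Exc_21 and Exc_26, between +2.08 and +3.03, and Nppc lower in Exc_7 (-1.22), of 65 tests of these other peptides in excitatory clusters, where 1.24% of tests of all genes were called. DESeq2 called none of these other peptides in Exc_26 or Exc_7. Over excitatory and inhibitory clusters together, 1.19% of tests of all genes were called higher with cocaine after 15 days and 0.0286% lower. In summed excitatory neurons none of the 9 other peptides tested was called at that time, where 0.706% of genes were.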

How the data were processed

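Raw UMI counts per gene and cell, deposited without normalization for 12 P60 and 3 P21 libraries, had been made by the authors with Cell Ranger on mm9 and Ensembl genes. The authors also deposited a table of retained cells with class, cluster and the fraction of mitochondrial UMIs per cell, named with Seurat 2.1.0, and doublets were left as the authors had treated them. Clusters were taken from it as deposited. Pairs of libraries shared at most 1.09% of the barcodes of the smaller one. Groups were taken from the labels, which also name the nucleus accumbens as tissue, whereas titles and paper name the PFC.

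For each library with at least 10 cells of a class or cluster, the UMIs of those cells were added up (scipy 1.17.1, pandas 2.3.3 and numpy 2.4.6 in python 3.11.15), leaving out 13 mitochondrial and 143 ribosomal protein genes. CPM are per retained UMI. Robust quasi-likelihood fits over all genes were made in edgeR 4.0.16 (R 4.3.3) after TMM scaling and its filter on low counts, and were tested on simulated data. A Benjamini-Hochberg adjusted p below 0.05 with a change above 1.5-fold was called. Log2 changes are P60 minus P21 and cocaine minus saline. Their SE is the size of the change divided by the square root of the quasi-likelihood F statistic. For genes with few UMIs this SE is only approximate and can be too small. P21 was compared with the 6 saline libraries, and cocaine with saline within each of 3 times, over the times and as an interaction. A count of 0 was read against a floor of 3 UMIs over the group. Depths were 8375172 to 42892922 retained UMIs per library, with a median of 3426 to 11334.5 per cell, so a gene with a few UMIs in a library is measured only coarsely.

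The members and lists were chosen with earlier results of these data known, so nothing is read from their shares of calls beside those of all genes. The rule names all 10 members in every comparison, which the text follows for the summed classes, while for single clusters and the interaction it gives those called and a few others. Receptors and other peptides are named where called by age or at a single time or, for receptors, in their highest cluster. Gene symbols and mm9 positions come from the NCBIM37 annotation, promoters from RefSeq. Alternatives were DESeq2 1.42.0, its size factors, no filter, a minimum of 30 cells, all 12 P60 libraries, P21 libraries 2 and 3 summed as 1, agreeing labels, mitochondrial and ribosomal genes kept, Inhib_3 left out, no fold limit and each library left out in turn. Promoters of Crh and Grp and the protein sequences were not used here.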

Additional observations from a re-analysis of the deposited data

Results flagged for a closer look

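Among 64 groups of 6 libraries tested with Dixon's criterion, 8 had a library far from the others. The criterion's rate of about 1 in 20 holds for independent, normally spread values. Each group here mixes the times, several values are near 0 and some groups rest on the same cells. The 8 of 64 can therefore not be read against that rate. All 8 lay in the cocaine P60 libraries. Library 1 (maintenance) had Vip at 7117 CPM in inhibitory neurons, where the others lay between 1380 and 2770 CPM, and 55.9% of its 34 inhibitory neurons were in the Vip clusters, against 12.9% to 25.0%. The saline libraries of the same time had 52.6% and 35.7%, so this library stands apart from the other cocaine libraries and lies near a saline library of its own time. Library 8 (48 h) had Tac1 at 4.08 CPM in excitatory neurons against 0 to 0.570 CPM, Cort at 4.01 CPM there against 0.215 to 1.08 CPM, and Npy at 412 CPM in non-neuronal cells against 18.1 to 69.7 CPM. Its OPC had 1981 CPM of Npy. In non-neuronal cells Vip was at 8.17 CPM in library 6 against 1.29 to 2.62 CPM, Tac2 at 0 in library 4 against 0.682 to 1.06 CPM, and Crh at 0.262 CPM in library 9 against 0 in the others, a single UMI that meets the criterion because all others are at 0.

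Grp moved in opposite directions with age in different excitatory clusters. Every P21 library was above every saline library in Exc_13 (-2.57) and Exc_18 (-2.08), and below in Exc_22 (+0.88) and Exc_6 (+0.85). The difference between clusters itself was not tested.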

How the results depend on the processing

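Cartpt in inhibitory neurons and in Exc_8, Npy in Exc_14 and, for cocaine, Cort in Inhib_2 kept their calls under all 18 alternatives, and Grp in Exc_13 and Exc_18, Tac1 in Inhib_2, and Npy and Cort in excitatory neurons under all 17 of theirs. Cluster fits hold only libraries with at least 10 cells (6 for Inhib_2 and Exc_18, 8 for Exc_8), and leaving out a library outside the fit could change nothing. In inhibitory neurons 3 members were called by age, 5 by DESeq2 and 2 to 4 with a library left out. In excitatory neurons 5 were called, 3 with P21 libraries 2 and 3 summed, 2 with agreeing labels and 3 to 5 with a library left out. Over clusters 15 were called by age, 9 with at least 30 cells, 54 with no filter and 13 to 19 with a library left out. For cocaine in inhibitory neurons 1 was called, 0 by DESeq2, 2 with no filter, 2 without Inhib_3 and 0 to 1 with a library left out. Over clusters 2 were called for cocaine, 1 by DESeq2, 1 with at least 30 cells, 12 with no filter and 2 to 5 with a library left out. In excitatory neurons none was called for cocaine, 5 with no filter and 0 with a library left out. The interaction called none, 3 with no filter and 1, Tac2 in inhibitory neurons, without Inhib_3. The shares of all genes called in these settings are not given, so nothing is read from how the counts of members move. With no filter the cocaine change of Sst in excitatory neurons at maintenance stayed at +1.70, while its SE went from 1.52 to 0.439. The share of Vip clusters by age was +18.9 points without Inhib_3 (exact permutation p = 0.0476) and +11.8 to +19.1 points with a library left out. That of Sst clusters was -37.3 to -33.4 points, and for cocaine the shares were -0.00715 to +4.28 points (Sst) and -10.0 to +0.297 points (Vip). Tac2 in excitatory neurons turned to +0.16 with agreeing labels, and Grp there ranged from -0.00462 to +0.143 with a library left out. The cause of these changes was not tested. No paired analysis was possible because the replicate numbers only name libraries and nothing in the labels ties P21 to P60 libraries or cocaine to saline libraries. P21 libraries 2 and 3 were summed because the 3 P21 libraries may share mice, and which of them do is not known. Inhibitory neurons were few, so clusters with fewer than 10 cells in a library, most of the 12 inhibitory ones, have no test, and a gene with a few UMIs per library cannot show a change of moderate size.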
